A study of Arabidopsis thaliana with 24 samples.

Results

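BCAT4, AT2G31790, UGT74B1 and AT1G04770 form a small group of Arabidopsis thaliana genes, of which 3 act in glucosinolate synthesis and AT1G04770 belongs to the response to sulfur deficiency. Each gene was represented by the probe sets that carry its name alone, which gave 4 probe sets of the 13513 with a single gene name. The genes were chosen by their signals across the 8 genotypes of these same arrays. Their signals and differences are therefore given as a description, without tests. Tests are kept for other genes of the pathways.

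Total RNA extracted from aerial tissue of plants 3 weeks old was measured on ATH1 arrays, which read each gene with a set of short oligonucleotide probes. All plants were grown with 1% sucrose at 22 °C, in 16 h of light and 8 h of dark. The series sets plants that overaccumulate flavonoids against plants that lack them, with 8 genotypes and 3 arrays each. MYB12OX/tt4 is a cross of MYB12OX with tt4, and pap1-D/tt4 is a cross of pap1-D with tt4, both homozygous. The line tt4 is a CHS mutant in the Col-0 background. CHS encodes chalcone synthase, the first enzyme of flavonoid synthesis. WOX1-2 and WOX1-1 are separate homozygous lines labelled alike, from crossing MYB12OX with pap1-D. The homozygous line pap1-D overexpresses MYB75/PAP1, an activator of anthocyanin synthesis, and MYB12OX, also homozygous, overexpresses MYB12, an activator of flavonol synthesis, both in the Col-0 background. Col-0 is the wild type. Which promoters drive the overexpressed genes is unknown from the labels. The growth protocol, shared by all arrays, also mentions a drought experiment, but no label ties an array to it. It is unstated whether replicate arrays hold RNA of separate plants, so the errors and p-values measure the spread between arrays, which may be technical.

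Glucosinolates are sulfur- and nitrogen-containing defence compounds of the cabbage family, which release toxic products when damaged tissue brings them together with myrosinase enzymes. Aliphatic glucosinolates are built from methionine, whose side chain is first lengthened in a cycle of reactions that BCAT4 opens. An amino acid, elongated or not, then passes through aldoxime formation, conjugation with a sulfur donor, cleavage to a thiohydroximate, glucosylation and sulfation, after which the side chain can be modified. Because every molecule holds several sulfur atoms, the pathway is known to respond to sulfur supply, and plants short of sulfur are known to lower glucosinolate synthesis and to switch on a set of sulfur deficiency genes.

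The deposited signals are linear intensities without a detection call, scaled so that the trimmed mean of each array was 500.0. A shift of most genes in 1 direction would not be seen after such scaling. Median signals lay between 163.9 and 176.7 per array, and an array's mean correlation with the others of its genotype lay between 0.980 and 0.992. Of the marker lists, the leaf list had 1 of 8 genes with a probe set under its name alone in the annotation used. This gene, RCA, which encodes rubisco activase, gave signals of 18031 to 27159. The root list had 2 of 8 such genes. EXPA7, a root hair gene, stayed between 2.8 and 54.2 and so below the signal of 85.2 that a probe set had to exceed on 3 arrays to be tested, while PYK10, a beta-glucosidase gene that is strong in roots and also used below as a glucosinolate breakdown gene, gave 1140.0 to 2634.6. The gene lists used here do not hold CHS, MYB12 or PAP1, so the alleles were not checked through their own genes.

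The genotypes also followed the order in which the arrays are listed in the series, which runs through Col-0, MYB12OX, pap1-D, WOX1-1, WOX1-2, MYB12OX/tt4, pap1-D/tt4 and tt4. The first principal component of the tested probe sets held 34.5% of the variance, and its genotype means followed that same order, with 21.1 in tt4 and -25.4 in Col-0. All comparisons below share this order with genotype, and the labels do not say whether it marks a processing order. Fits with listing place as a covariate are described beside the main comparisons. Each genotype fills its own block of the listing, so the slope of these fits comes only from array number within genotypes. It was -0.12 per array number on the log2 scale for BCAT4, -0.11 for AT2G31790, -0.05 for UGT74B1 and -0.02 for AT1G04770. The fits carry this slope across the listing and so shift every genotype difference. They cannot tell listing place from genotype, and nothing is read from the shifted values.

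BCAT4 encodes the aminotransferase that deaminates methionine and so opens side-chain elongation. Its signal was 1479.8, 1531 and 962 in the MYB12OX/tt4 arrays, 1586, 1742 and 1151 in the pap1-D/tt4 arrays and 1012, 943 and 1178 in the tt4 arrays. It was 2147, 1457 and 1803 in WOX1-2, 1545, 1365.0 and 1308 in WOX1-1, 1804, 2023 and 1711 in pap1-D, 2409, 2051 and 1686 in MYB12OX, and 2081, 2996 and 2050.3 in Col-0. The tt4 arrays were all below the Col-0 arrays, and a single Col-0 array, number 2, was far above the other two. The genotype means ran in the order Col-0, MYB12OX, pap1-D, WOX1-2, pap1-D/tt4, WOX1-1, MYB12OX/tt4 and tt4, and each neighbouring pair in that order had overlapping arrays. In bulk tissue such as this, fewer cells of a type and less RNA per cell cannot be told apart.

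AT2G31790 encodes a glucosyltransferase of the core pathway. The MYB12OX/tt4 arrays gave 409.9, 392 and 261, the pap1-D/tt4 arrays 356, 413 and 290.0, and the tt4 arrays 294, 375 and 342. The WOX1-2 arrays gave 391, 439.6 and 369, the WOX1-1 arrays 467, 530.2 and 449, the pap1-D arrays 693, 462 and 529, the MYB12OX arrays 732, 578 and 556, and the Col-0 arrays 822, 725 and 673. The 3 genotypes with tt4 were alike, with a mean of 354.5 for MYB12OX/tt4, 353 for pap1-D/tt4 and 337 for tt4. Above them the means ascended through WOX1-2, WOX1-1, pap1-D and MYB12OX to Col-0, but of all neighbours in this order only WOX1-2 and WOX1-1 had arrays that did not overlap.

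UGT74B1 encodes a glucosyltransferase that adds glucose to thiohydroximates, the step before sulfation. Its signal was 791, 647 and 773.5 in MYB12OX/tt4, 828, 739 and 496 in pap1-D/tt4 and 682, 652 and 862 in tt4. It was 631, 759 and 645 in WOX1-2, 1025, 737 and 801 in WOX1-1, 736, 803 and 775 in pap1-D, 977, 689 and 869 in MYB12OX, and 929.8, 976 and 953 in Col-0. All neighbours in the order of means overlapped, and the lowest mean, in WOX1-2, was 71.2% of the highest, in Col-0. Of the 4 genes it varied least with genotype.

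AT1G04770, the sulfur deficiency response gene, separated the genotypes most. Its signal was 194, 236 and 189.9 in MYB12OX/tt4, 187, 247 and 206 in pap1-D/tt4 and 157, 213 and 166.5 in tt4. It was 304, 325 and 255 in WOX1-2, 451, 419.8 and 425 in WOX1-1, 562, 631 and 578 in pap1-D, 871, 668 and 752 in MYB12OX, and 723, 705 and 695 in Col-0. The 9 arrays with tt4 had a lowest, median and highest signal of 157, 194 and 247, against 255, 578 and 871 in the 15 arrays without it, so that the groups did not overlap. Such a pattern, with all tt4 arrays below all others, was found in 105 of the 14935 tested probe sets (0.703%). The rule that chose the gene used these signals, so nothing is read from that share.

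Within the arrays that carry an intact CHS, AT1G04770 also formed steps. Neighbouring genotypes did not overlap at WOX1-2 and WOX1-1, at WOX1-1 and pap1-D, or at pap1-D and Col-0, while MYB12OX and Col-0 overlapped. Such gaps between single genotypes were not counted over all tested probe sets, for this gene or those above, so nothing is read from them. As a percentage of its highest mean, in MYB12OX, the level was 23.4% in tt4, 27.1% in MYB12OX/tt4, 27.9% for pap1-D/tt4, 38.6% in WOX1-2, 56.6% in WOX1-1, 77.4% in pap1-D and 92.7% in Col-0. The lowest BCAT4 mean, in tt4, was 44.0% of its highest, and the lowest AT2G31790 mean, also in tt4, was 45.5%.

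**Figure D1:**
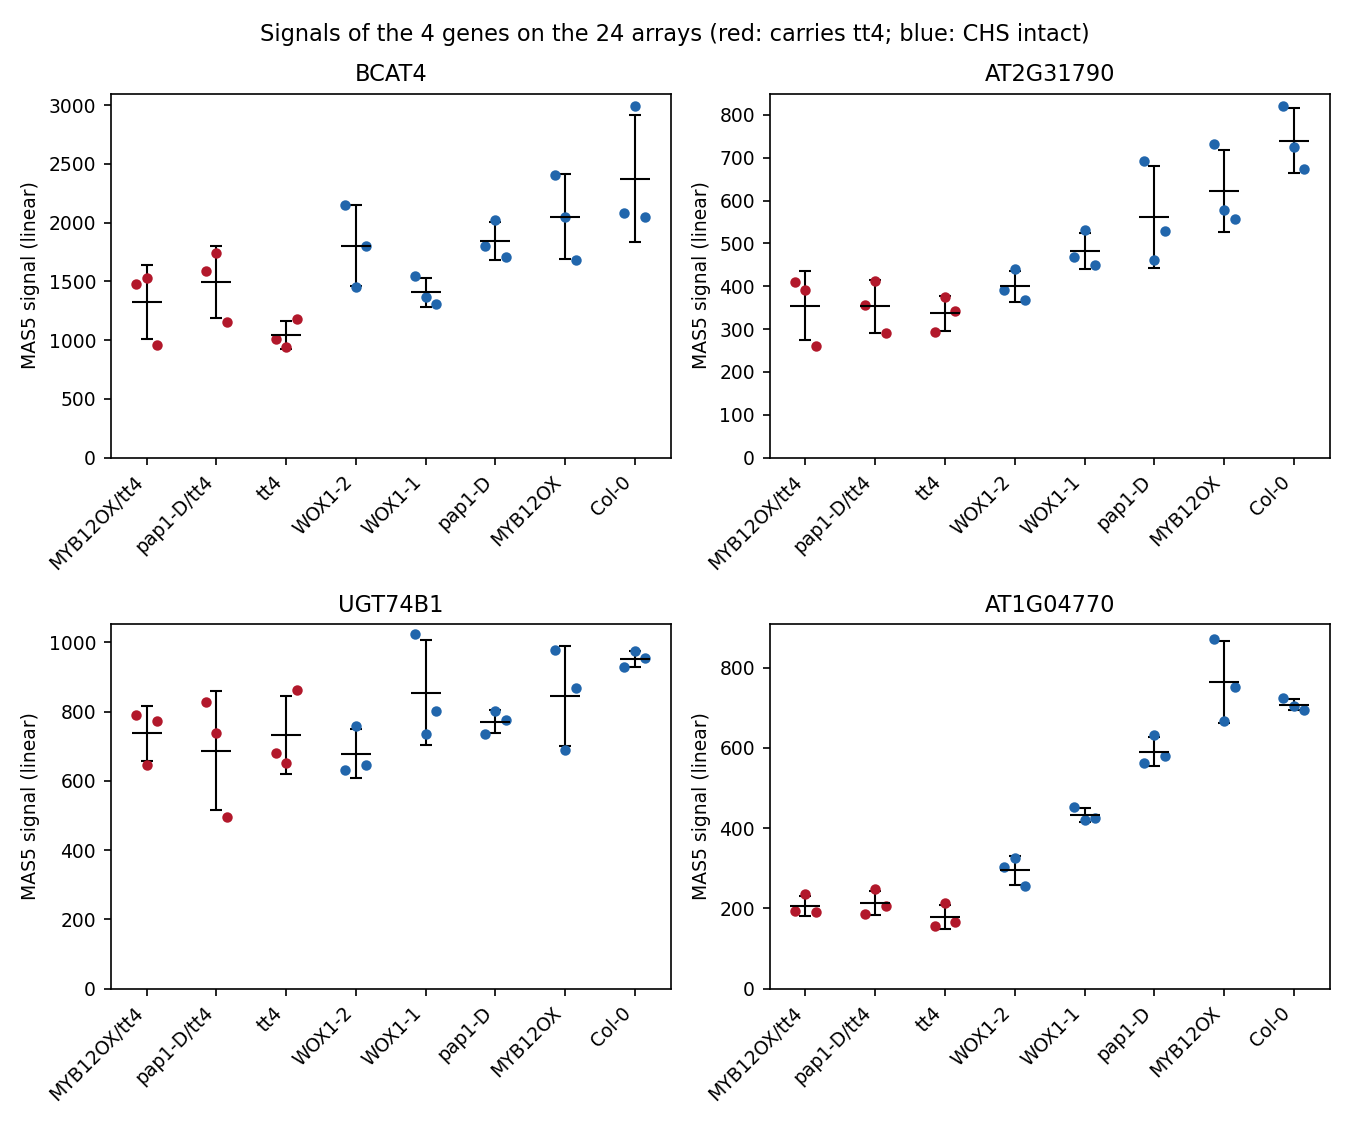
Signal of each of the 4 genes by genotype. Points are the 3 arrays of a genotype, red with tt4 and blue without it, and the lines mark the mean and the SD, on a linear axis in the authors' signal units. The AT1G04770 points of the 3 genotypes with tt4 lie between 157 and 247, below all 15 points of the other genotypes, whereas the UGT74B1 points with tt4 (496 to 862) overlap those without it (631 to 1025).

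Differences between genotypes were taken on log2(signal + 42.6) from a limma fit to all arrays, and are given with the standard error of that fit. The spread of the 8 genotype means, as the distance between the highest and the lowest, was 1.86 for AT1G04770, 1.14 for BCAT4, 1.04 for AT2G31790 and 0.48 for UGT74B1, against a median of 0.35 over all tested probe sets. Genotype accounted for 97.5% of the variance of AT1G04770, 82.7% of AT2G31790, 73.8% of BCAT4 and 46.1% of UGT74B1, against a median of 50.1%. The rule that chose the genes used these signals, so nothing is read from their place against these medians. The within-genotype SD was 0.14 for AT1G04770, near the all-gene median of 0.13, but 0.25 for BCAT4, 0.21 for AT2G31790 and 0.20 for UGT74B1.

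The loss of CHS can be compared in 3 backgrounds that share no arrays: MYB12OX/tt4 with MYB12OX, pap1-D/tt4 with pap1-D, and tt4 with Col-0. AT1G04770 was lower with tt4 in each, with differences of -1.69 ± 0.11 for MYB12OX/tt4, -1.31 ± 0.11 for pap1-D/tt4 and -1.77 ± 0.11 for tt4 (log2 ± SE, 3 arrays a genotype). This is 3.23-fold, 2.48-fold and 3.41-fold lower on the same offset scale. The arrays did not overlap in any of these pairs, which follows from the split of all arrays by tt4 given above. With listing place as a covariate the differences were -1.42 ± 0.42, -1.04 ± 0.42 and -1.29 ± 0.72 in that order of pairs, with larger errors. Nothing is read from these shifted values. Whether listing place has a part in the result was not tested.

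BCAT4 differed by -0.63 ± 0.18 between MYB12OX/tt4 and MYB12OX, by -0.32 ± 0.18 between pap1-D/tt4 and pap1-D, and by -1.14 ± 0.18 between tt4 and Col-0, where it was 2.20-fold lower in tt4. AT2G31790 differed by -0.76 ± 0.15, -0.60 ± 0.15 and -1.04 ± 0.15 in those pairs, which is 2.06-fold lower in tt4 than in Col-0. UGT74B1 differed by -0.18 ± 0.15, -0.19 ± 0.15 and -0.37 ± 0.15. For these glucosinolate genes the sign turned with listing place as a covariate, a fit that carries the slope within genotypes across the listing. In it tt4 minus Col-0 became 1.38 ± 1.06 for BCAT4, 1.29 ± 0.87 for AT2G31790 and 0.64 ± 0.96 for UGT74B1. MYB12OX/tt4 minus MYB12OX became 0.81 ± 0.62, 0.58 ± 0.51 and 0.40 ± 0.56 for those genes, and pap1-D/tt4 minus pap1-D became 1.12 ± 0.62, 0.73 ± 0.51 and 0.39 ± 0.56. The UGT74B1 difference between pap1-D/tt4 and pap1-D was 0.02 without the third pap1-D/tt4 array, which at 496 was the lowest UGT74B1 signal of the series.

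Differences between tt4 and CHS-intact plants were then compared across backgrounds. The CHS effect in the pap1-D background minus that in Col-0 was 0.82 ± 0.26 for BCAT4, 0.44 ± 0.22 for AT2G31790, 0.19 ± 0.21 for UGT74B1 and 0.46 ± 0.16 for AT1G04770. In the MYB12OX background it was 0.51 ± 0.26, 0.29 ± 0.22, 0.19 ± 0.21 and 0.08 ± 0.16 for the same genes in the same order. Once listing place was a covariate, the pap1-D values turned to -0.26 for BCAT4, -0.56 for AT2G31790 and -0.25 for UGT74B1, with 0.25 for AT1G04770, and the MYB12OX values turned to -0.57, -0.71, -0.24 and -0.13. These values come from the signals that chose the genes and carry no test.

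In the tt4 background the differences between plants with and without an overexpressed regulator were all within 0.48 on the log2 scale. MYB12OX/tt4 minus tt4 was 0.31 ± 0.18 for BCAT4, 0.05 ± 0.15 for AT2G31790, 0.01 ± 0.15 for UGT74B1 and 0.17 ± 0.11 for AT1G04770. The values for pap1-D/tt4 minus tt4 were 0.48 ± 0.18 for BCAT4, 0.05 ± 0.15 for AT2G31790, -0.10 ± 0.15 for UGT74B1 and 0.21 ± 0.11 for AT1G04770. The fit with listing place gave MYB12OX/tt4 minus tt4 as -0.41, -0.62, -0.27 and 0.04 for the genes in that order, and pap1-D/tt4 minus tt4 as 0.12, -0.28, -0.25 and 0.14. BCAT4 had the highest difference in both crosses without the covariate, and its lowest pap1-D/tt4 array, at 1151, lay below the highest tt4 array, at 1178.

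The plants with intact CHS were set against Col-0, whose 3 arrays are shared by all of these comparisons. AT1G04770 differed by -1.16 ± 0.11 in WOX1-2, -0.66 ± 0.11 in WOX1-1, -0.25 ± 0.11 in pap1-D and 0.10 ± 0.11 in MYB12OX. AT2G31790 followed the same order, with -0.82 ± 0.15 in WOX1-2, -0.57 ± 0.15 in WOX1-1, -0.39 ± 0.15 in pap1-D and -0.24 ± 0.15 in MYB12OX. BCAT4 did not follow it: it was lowest in WOX1-1, with -0.72 ± 0.18, against -0.39 ± 0.18 in WOX1-2, -0.34 ± 0.18 in pap1-D and -0.20 ± 0.18 in MYB12OX. UGT74B1 differed by -0.47 ± 0.15 in WOX1-2, -0.16 ± 0.15 in WOX1-1, -0.29 ± 0.15 in pap1-D and -0.18 ± 0.15 in MYB12OX.

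The WOX1 lines carry both overexpressed regulators, and AT1G04770 was lower in them than in either parent. WOX1-2 differed by -1.25 ± 0.11 from MYB12OX and by -0.91 ± 0.11 from pap1-D, and WOX1-1 by -0.76 ± 0.11 and -0.42 ± 0.11. The lines also differed from each other, with WOX1-2 minus WOX1-1 at -0.50 ± 0.11 for AT1G04770, -0.25 ± 0.15 for AT2G31790 and -0.31 ± 0.15 for UGT74B1, but 0.33 ± 0.18 for BCAT4. With listing place as a covariate AT1G04770 kept its sign against Col-0 at -0.88 ± 0.42 for WOX1-2, -0.45 ± 0.32 for WOX1-1 and -0.11 ± 0.23 for pap1-D. BCAT4 and AT2G31790 turned to 1.05 and 0.51 in WOX1-2, to 0.36 and 0.42 in WOX1-1, to 0.38 and 0.28 in pap1-D and to 0.16 and 0.09 in MYB12OX. UGT74B1 turned to 0.11 in WOX1-2 and 0.27 in WOX1-1, and was -0.003 in pap1-D and -0.03 in MYB12OX.

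**Figure D2:**
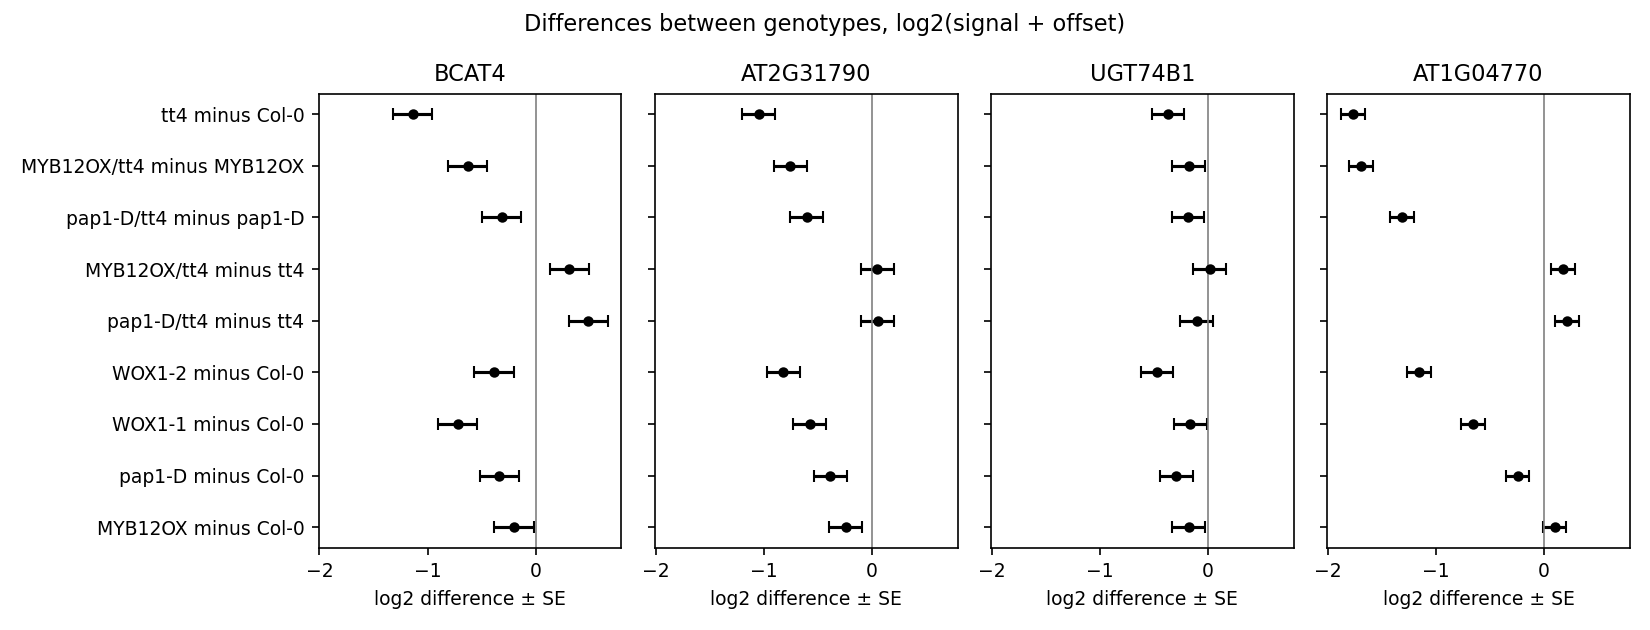
Differences between genotypes for each gene on the log2(signal + 42.6) scale, with the standard error of the limma fit. Points left of 0 are lower in the genotype named first. The AT1G04770 differences for the loss of CHS lie between -1.77 and -1.31, beyond those of the other genes in the same comparison.

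The wider pathway was taken from 7 lists of 108 genes, covering chain elongation, core structure, side chain, regulators, transport and breakdown, sulfate assimilation and sulfur deficiency. Only 17 had a probe set with a single gene name, and without the 4 genes above 13 remained. AOP3 (signals of 2.3 to 49.0) and BGLU28 (32.3 to 90.5) were too dim to be tested, which left 11 genes. These are GSTU20 of the core pathway, AOP1 and AT2G25450 on the side-chain list, the MYC3 and MYC4 transcription factors, the transporters GTR1 and GTR2, the beta-glucosidase PYK10, the ATP sulfurylases APS3 and APS4, and the sulfite reductase SIR. Their adjusted p-values come from the limma fit over all tested probe sets.

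In tt4 against Col-0, 4 of the 11 pathway genes fell and none rose, where 17.2% of all tested probe sets were lower and 19.2% higher. The median difference of the 11 genes was -0.13, against 0.01 over all tested probe sets. GSTU20, a glutathione transferase gene, fell by 1.37 ± 0.20 on the log2 scale (adjusted p = 1.62e-05), with signals of 902, 754 and 755 in tt4 and 1878, 2933 and 1761 in Col-0. AOP1, of the family of dioxygenases that modify side chains, fell by 1.095 ± 0.11 (adjusted p = 4.91e-08), with 153, 149.7 and 143 in tt4 and 404, 373 and 324 in Col-0. AT2G25450 fell by 0.45 ± 0.11 (adjusted p = 0.00241). GTR1, a glucosinolate transporter gene, fell by 0.75 ± 0.26 (adjusted p = 0.0295), but its adjusted p lay between 0.0576 and 0.0848 without Col-0 array 2 or 3 or any of the 3 tt4 arrays, and at 0.0522 without the filter on low signals.

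In MYB12OX/tt4 against MYB12OX, 4 of the 11 fell and none rose, where 8.23% of all tested probe sets were lower and 9.2% higher. AOP1 fell by 0.58 ± 0.11 (adjusted p = 0.000553), AT2G25450 by 0.48 ± 0.11 (adjusted p = 0.00411), GSTU20 by 0.81 ± 0.20 (adjusted p = 0.00776) and PYK10 by 0.55 ± 0.18 (adjusted p = 0.0404). The GSTU20 call was lost without MYB12OX array 1 (adjusted p = 0.0636) or MYB12OX/tt4 array 3 (adjusted p = 0.0633). The PYK10 call was lost without MYB12OX array 1 or 2 or MYB12OX/tt4 array 1 or 3, where its adjusted p reached 0.192, and also without the filter (adjusted p = 0.0699) or the intensity trend (adjusted p = 0.0542).

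In pap1-D/tt4 against pap1-D, 3 of the 11 fell and 1 rose, where 8.84% of all tested probe sets were lower and 10.1% higher. AOP1 fell by 0.74 ± 0.11 (adjusted p = 4.04e-05), GSTU20 by 0.88 ± 0.20 (adjusted p = 0.00401) and AT2G25450 by 0.36 ± 0.11 (adjusted p = 0.0238). MYC3, a transcription factor of jasmonate signalling that acts on glucosinolate genes, rose by 0.54 ± 0.17 (adjusted p = 0.0293). The MYC3 call was lost without pap1-D array 1 or 3 or pap1-D/tt4 array 1 or 2, with an adjusted p of up to 0.153, and also without the filter (adjusted p = 0.0526) or with array weights (adjusted p = 0.0608). The AT2G25450 call was lost without pap1-D array 1 (adjusted p = 0.0969) or pap1-D/tt4 array 3 (adjusted p = 0.129).

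GSTU20, AOP1 and AT2G25450 were thus lower in all 3 comparisons, as 3 of the 11 pathway genes, while 5.3% of all tested probe sets were lower in all 3. The calls of AOP1 were kept with any single array left out. MYC4, GTR2, APS4 and SIR were called in none of the comparisons of genotypes in the main fit. In tt4 against Col-0 their differences were -0.13 for MYC4 (adjusted p = 0.533), 0.21 for GTR2 (adjusted p = 0.150), 0.00 for APS4 (adjusted p = 0.998) and 0.08 for SIR (adjusted p = 0.392). With a single array left out, the lowest limma adjusted p was 0.0156 for MYC4 in WOX1-1 against Col-0 and 0.0415 for GTR2 in tt4 against Col-0. None of the 11 genes passed the test of a difference in the CHS effect between backgrounds. The lowest adjusted p was that of AOP1, at 0.130 for a CHS effect that was 0.52 ± 0.15 higher in the MYB12OX background than in Col-0. For that background 0.268% of all tested probe sets were called. An unadjusted limma p under 0.05 was found for 2 of the 11 genes and for 1587 of the 14935 tested probe sets. For the pap1-D background 1.17% of all tested probe sets were called, and 1 of the 11 had an unadjusted p under 0.05, against 2073 of the 14935. RCA, the leaf gene, also fell in each of the 3 comparisons, by 0.23 ± 0.08 each time (adjusted p between 0.0248 and 0.0425). Its part in the results was not tested.

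With listing place as a covariate no pathway gene passed the test in any of these comparisons, and in tt4 against Col-0 the difference turned to 1.76 for GSTU20, 1.69 for AT2G25450 and 3.30 for GTR1. GSTU20 and AT2G25450 also turned in MYB12OX/tt4 against MYB12OX (0.98 and 0.75) and in pap1-D/tt4 against pap1-D (0.91 and 0.86). AOP1 kept its negative sign in all 3, at -1.48 in tt4 against Col-0 (adjusted p = 0.319). This fit widens the errors by its design, so nothing is read from the lost calls or the signs.

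The pathway calls of the lines with intact CHS against Col-0 are given beside the shares of all tested probe sets. Nothing is read from their number. In WOX1-2, where 12.1% of all tested probe sets were lower and 11% higher, AOP1 fell by 0.67 ± 0.11 (adjusted p = 6.08e-05) and AT2G25450 by 0.38 ± 0.11 (adjusted p = 0.0134). In WOX1-1, where 9.09% were lower and 7.68% higher, AOP1 fell by 0.43 ± 0.11 (adjusted p = 0.0061) and APS3 rose by 0.51 ± 0.15 (adjusted p = 0.0187). In pap1-D, where 5.03% were lower and 5.07% higher, APS3 rose by 0.59 ± 0.15 (adjusted p = 0.0115) and no other gene was called. APS3 encodes an ATP sulfurylase, which activates sulfate in the first step of its assimilation. In MYB12OX, where 1% of all tested probe sets were called, none of the 11 passed in limma. There 2 had an unadjusted p under 0.05, against 1908 of the 14935 tested probe sets.

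None of these calls was kept with listing place as a covariate, a fit whose errors are wider by design, so nothing is read from the loss. In it AOP1 had a limma adjusted p of 0.304 in WOX1-2 and 0.381 in WOX1-1. APS3 had 0.289 in WOX1-1 and 0.143 in pap1-D, and AT2G25450 turned to 0.84 in WOX1-2 (adjusted p = 0.210). Single arrays decided part of the calls against Col-0. APS3 was not called in WOX1-1 when only the compared genotypes were fitted (adjusted p = 0.0540) or with array weights (adjusted p = 0.0681). It was no longer called in pap1-D without Col-0 array 1 or 3 or pap1-D array 2 (adjusted p of 0.0502 to 0.0657), or in WOX1-1 without Col-0 array 1 or 3 or WOX1-1 array 1 (adjusted p of 0.0778 to 0.122). AT2G25450 was no longer called in WOX1-2 without WOX1-2 array 2 (adjusted p = 0.069) or 3 (adjusted p = 0.0884). In the tt4 background none of the 11 genes was called for MYB12OX/tt4 or pap1-D/tt4 against tt4, where 0.187% (28) and 0.147% (22) of all tested probe sets were. With the replicate number as a block, which pairs the arrays of MYB12OX/tt4 and tt4, 97 and not 28 were called. In limma 2 and 1 of the 11 had an unadjusted p under 0.05, against 1602 and 792 of the 14935 tested probe sets.

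**Figure D3:**
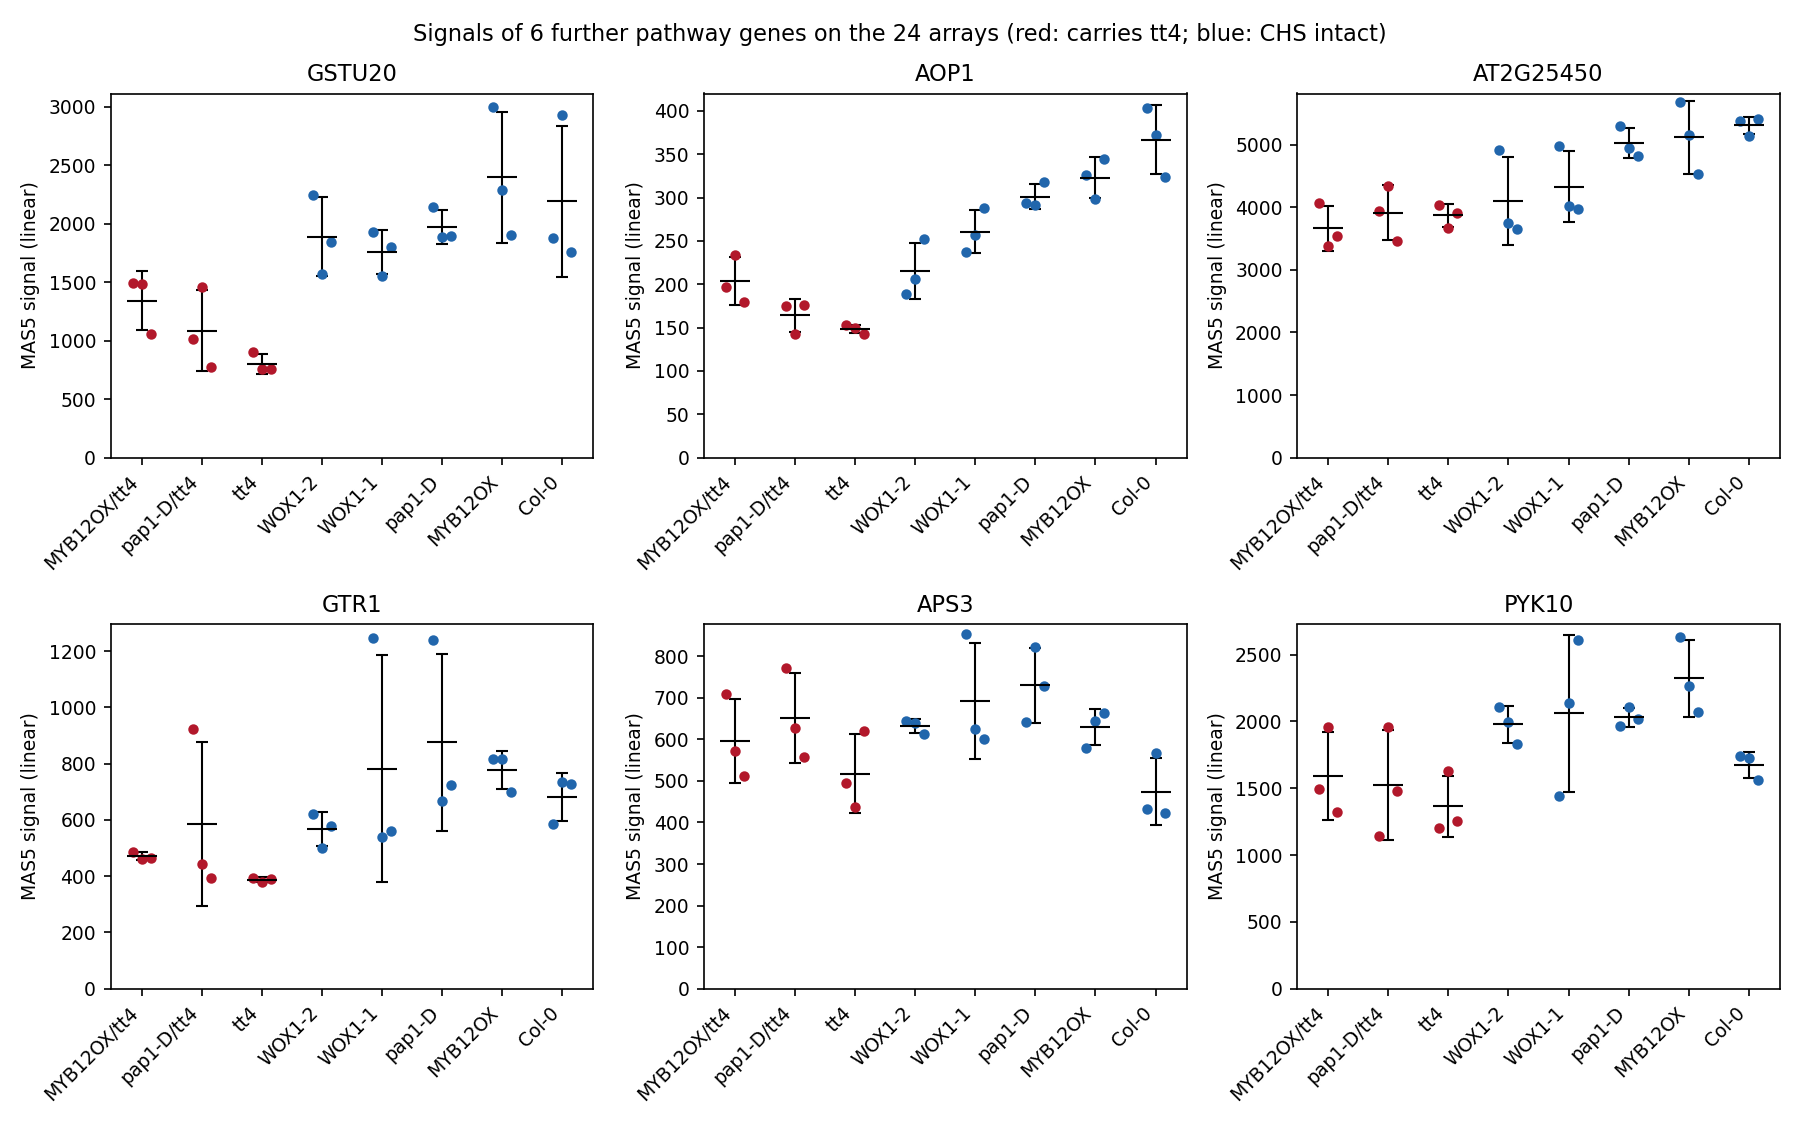
Signal of the pathway genes GSTU20, AOP1, AT2G25450, GTR1, APS3 and PYK10 by genotype, as points for the 3 arrays (red with tt4, blue without it) and lines for the mean and the SD, in the authors' linear signal units. AOP1 has means of 148 in tt4 and 367 in Col-0 with the other genotypes between, and GSTU20 has its lowest mean, 804, in tt4.

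The likeness of the 4 genes to one another was described by Pearson's r over the 24 arrays, which share genotype and listing order, and again over the deviations of arrays from their genotype means. AT2G31790 and AT1G04770 had the highest r, 0.90 over arrays and 0.44 over deviations. BCAT4 gave r = 0.76 with AT2G31790 and 0.74 with AT1G04770 over arrays, but 0.43 and 0.20 over deviations. UGT74B1 gave 0.59 with AT2G31790, 0.54 with AT1G04770 and 0.43 with BCAT4 over arrays, and 0.19, 0.14 and 0.31 over deviations. Each pair had a lower r once the genotype means were taken out. Among 5633 named probe sets, AT2G31790 ranked 92 in likeness to AT1G04770 over arrays and 210 over deviations. In turn AT1G04770 ranked 35 and 151 in likeness to AT2G31790. The genes were chosen by these signals, so nothing is read from their likeness to one another.

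Among 5633 named probe sets with a mean signal of at least 200, the one most like BCAT4 was GSTU20, which acts further down the same pathway. Their r was 0.87 over arrays (rho 0.82) and 0.86 over deviations (rho 0.86), and stayed at 0.82 and 0.83 without the 2 arrays farthest from the BCAT4 median. Of the other 3 genes nearest to BCAT4 over deviations, AT1G72500 and AT5G54970 had r = 0.74 and AT5G44720 had r = 0.72, against a 99th percentile of 0.54 over all candidates. The Col-0 array with the highest BCAT4 signal, 2996, also had a GSTU20 signal of 2933, far above 1878 and 1761 in the other Col-0 arrays. The lowest MYB12OX/tt4 array, with a BCAT4 signal of 962, had the lowest GSTU20 signal of that genotype, 1054. The points of this correlation share the array's scaling and the handling of the sample.

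**Figure D4:**
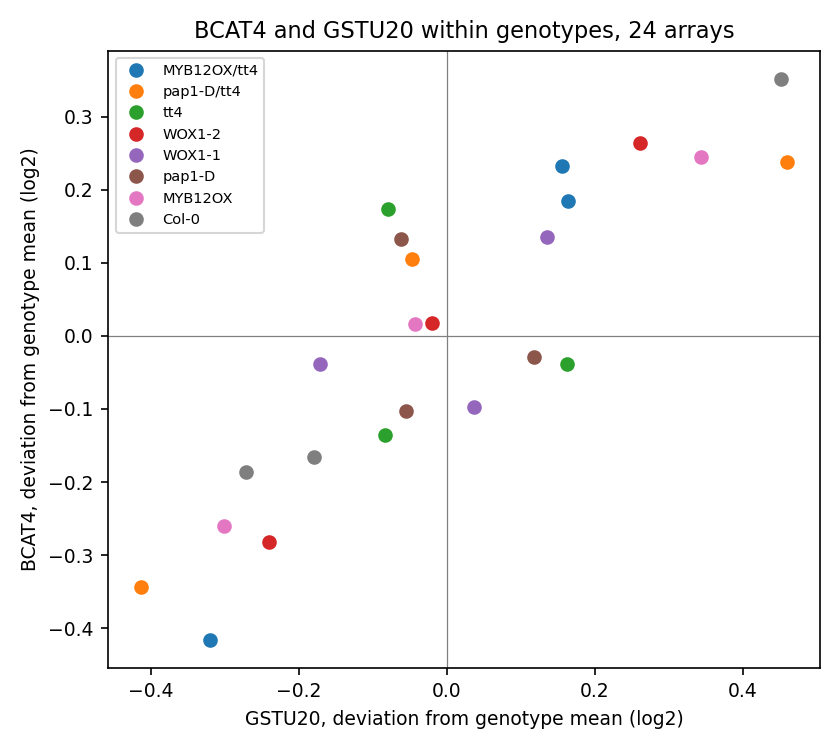
Deviation of each of the 24 arrays from its genotype mean on the log2(signal + 42.6) scale, for GSTU20 (horizontal axis) and BCAT4 (vertical axis), coloured by genotype. Arrays above their genotype mean in BCAT4 mostly lie above it in GSTU20 too, with r = 0.86.

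AT1G04770 was most like AT1G15290 over arrays (r = 0.98), followed by AT5G21100 (0.97), AT1G13650 (0.96) and AT4G33660 (0.96), where the 99th percentile of candidates was 0.92. Over deviations other genes came first, AT3G51950 (0.86), AT4G36210 (0.80), AT1G22860 (0.77) and AT5G59410 (0.71). AT2G31790 was most like AT3G21670 and AT1G73600 over arrays (0.94 each), with AT4G33660 and AT4G27700 at 0.93, and like AT2G29320 (0.78), AT1G73600 (0.74), AT1G03440 (0.74) and CYP71B26 (0.71) over deviations. UGT74B1 was most like rpl32, AT3G56010 and AT5G46560 (0.76 each) and AT4G39150 (0.75) over arrays, and over deviations like AT1G31550 (0.80), AT3G56010 (0.79), AT2G43530 (0.79) and AT4G39150 (0.77).

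Each of the 4 genes had lower signals toward the end of the listing order. The correlation of signal on the log2 scale with listing place was -0.95 for AT1G04770, -0.91 for AT2G31790, -0.79 for BCAT4 and -0.57 for UGT74B1 (24 arrays, rho -0.94, -0.92, -0.78 and -0.53), and the correlation with the first principal component was -0.95, -0.93, -0.77 and -0.60. Among all tested probe sets 10.5% had a correlation below -0.7 and 12.4% above 0.7. Within genotypes, array 3 was below array 1 in 7 of the 8 genotypes for BCAT4 and AT2G31790, in 5 for AT1G04770 and in 4 for UGT74B1. Listing place and genotype cannot be told apart beyond the small change in place within a genotype.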

How the data were processed

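The authors deposited 1 table of linear signal intensities for 24 ATH1 arrays, made with MAS5 per the submitters' processing notes. Control probe sets (64) were left out, leaving 22746. The annotation gave 13513 of these 1 gene, 503 several and 8730 none, and 13436 single-gene probe sets matched RefSeq (TAIR10.1, used for names). Groups came from the labels.

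The offset of 42.6 (the overall median of 170.4 divided by 4) was added before log2. Probe sets above 85.2 on at least 3 arrays were kept, 14935 in all. A model with 1 mean per genotype (16 residual degrees of freedom) was fitted with limma 3.58.1 (lmFit, eBayes with an intensity trend) in R 4.3.3, two-sided. P-values were adjusted by Benjamini-Hochberg over all tested probe sets, and an adjusted p under 0.05 counted as called. The procedure was tested on simulated data.

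The genes, lists and contrasts were chosen with earlier results of these data known. Named are the 4 genes, every tested single-gene probe set of the lists, and the 4 probe sets most correlated with each gene (mean signal of at least 200). Offsets, filter, normalization, fit, array weights, replicate block, listing place and left-out arrays were varied. Same-numbered arrays deviated together (every correlation over 0.1) only between pap1-D/tt4 and pap1-D (0.12 to 0.20) and between MYB12OX/tt4 and tt4 (0.11 to 0.17). Promoter and protein sequences were not analysed here. Array number limits the precision.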

Additional observations from a re-analysis of the deposited data

How the results depend on the processing

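In comparisons of the 4 genes with Col-0, listing place was the sole alternative that turned a sign. Against tt4, differences near 0 of AT2G31790 and UGT74B1 crossed 0 when single arrays were left out or, for AT2G31790 in MYB12OX/tt4, with array weights, and so did UGT74B1 in pap1-D/tt4 minus pap1-D and AT1G04770 in the MYB12OX difference of CHS effects without 1 array. In tt4 minus Col-0, leaving out an array gave -1.23 to -0.96 for BCAT4, -0.49 to -0.30 for UGT74B1, -1.12 to -0.96 for AT2G31790 and -1.88 to -1.70 for AT1G04770. An offset of the median over 16 gave -1.93 for AT1G04770, and an offset of the median gave -1.33 for AT1G04770 and -0.84 for AT2G31790, since a larger offset damps differences.

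With listing place as a covariate AT1G04770 was at -1.29 in tt4 minus Col-0. BCAT4 turned to 1.38 for tt4, 1.05 for WOX1-2, 0.36 for WOX1-1, 0.38 for pap1-D and 0.16 for MYB12OX (each minus Col-0), to 0.81 in MYB12OX/tt4 minus MYB12OX, 1.12 in pap1-D/tt4 minus pap1-D, -0.41 in MYB12OX/tt4 minus tt4, and to -0.26 and -0.57 in the CHS effect with pap1-D and with MYB12OX minus that without. AT2G31790 turned to 1.29 for tt4, 0.51 for WOX1-2, 0.42 for WOX1-1, 0.28 for pap1-D, 0.09 for MYB12OX, 0.58 for MYB12OX/tt4 minus MYB12OX, 0.73 in pap1-D/tt4 minus pap1-D, -0.62 and -0.28 in MYB12OX/tt4 and pap1-D/tt4 minus tt4, and -0.56 and -0.71 in the pap1-D and MYB12OX differences of CHS effects. UGT74B1 turned to 0.64 in tt4, 0.11 in WOX1-2, 0.27 in WOX1-1, 0.40 in MYB12OX/tt4 minus MYB12OX, 0.39 in pap1-D/tt4 minus pap1-D, -0.27 in MYB12OX/tt4 minus tt4, and -0.25 and -0.24 in those differences of CHS effects. AT1G04770 turned to -0.13 in the MYB12OX difference of CHS effects. Of the pathway genes called, GSTU20 turned to 1.76 in tt4, 0.98 in MYB12OX/tt4 and 0.91 in pap1-D/tt4, AT2G25450 to 1.69, 0.75 and 0.86 there and 0.84 in WOX1-2, and GTR1 to 3.30 in tt4. Probe sets called became 84 for tt4, 103 for WOX1-2, 139 for WOX1-1, 163 for pap1-D, 24 for MYB12OX, 45 in MYB12OX/tt4 minus MYB12OX, 136 in pap1-D/tt4 minus pap1-D, 144 in MYB12OX/tt4 minus tt4, 80 in pap1-D/tt4 minus tt4 and 20 in the pap1-D difference of CHS effects. Pathway genes called became 0 for tt4, WOX1-2, WOX1-1, pap1-D, MYB12OX/tt4 minus MYB12OX and pap1-D/tt4 minus pap1-D. Genotypes coincide with blocks of listing place, so this fit takes its slope from array number within genotypes and carries it across the listing. That moves the estimates as well as widening their errors, and it cannot tell listing place from genotype.

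With the replicate block the probe sets called were 338 in MYB12OX, 97 in MYB12OX/tt4 minus tt4, 184 and 391 in the differences of CHS effects with MYB12OX and with pap1-D, and 4 pathway genes were called in WOX1-1. The additions there were AT2G25450 and MYC4, and GTR1 was added in MYB12OX/tt4 minus MYB12OX. The block changed no other pathway call. Same-numbered arrays had every correlation of deviations over 0.1 in 2 comparisons alone, though pap1-D/tt4 and tt4 ran from 0.05 to 0.28. Elsewhere a link between arrays beyond the number was not shown. Fits of the compared genotypes alone called 82 in MYB12OX, 935 in pap1-D, 1550 in pap1-D/tt4 minus pap1-D, 9 in MYB12OX/tt4 minus tt4, 14 in pap1-D/tt4 minus tt4 and 60 in the pap1-D difference of CHS effects, with 1 pathway gene in WOX1-1 and 4 in WOX1-2. For these fits and the block, the WOX1 calls over all tested probe sets are not given. Nothing is therefore read from their pathway counts. Array weights called 353 in MYB12OX, 103 in MYB12OX/tt4 minus tt4 and 137 in the MYB12OX difference of CHS effects. That difference had 11 without the filter, 63 after quantile normalization and 9 without the intensity trend. The causes were not tested.

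Leaving out 1 array gave 4499 to 5040 probe sets for tt4, 2482 to 3121 for WOX1-2, 1597 to 2308 for WOX1-1, 716 to 1378 for pap1-D, 34 to 211 for MYB12OX, 1571 to 2455 in MYB12OX/tt4 minus MYB12OX, 1723 to 2664 in pap1-D/tt4 minus pap1-D, 12 to 26 and 17 to 26 in MYB12OX/tt4 and pap1-D/tt4 minus tt4, and 2 to 86 and 53 to 254 in the differences of CHS effects with MYB12OX and with pap1-D. Pathway genes called ranged from 3 to 4 for tt4, 1 to 3 for WOX1-2, 1 to 2 for WOX1-1, 0 to 1 for pap1-D, and 2 to 4 in both MYB12OX/tt4 minus MYB12OX and pap1-D/tt4 minus pap1-D. Calls gained in this way were MYC4 and AT2G25450 (limma adjusted p = 0.0156 and 0.0181) in WOX1-1 and APS3 (0.0210) in WOX1-2. MYC3 (0.0282) was gained in pap1-D, GTR2 (0.0415) in tt4, and GTR1 (0.0101) and PYK10 (0.0261) in pap1-D/tt4 minus pap1-D. Signal over background could not be judged without detection calls.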
